A study of Mus musculus with 6 samples.

Results

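Paired immune receptors are families in which closely related surface proteins send opposite signals, and 9 such genes of the TREM, CD300, PILR, PIR and SIRP families were followed here out of 41388 genes counted in each library. They were chosen by name: Trem1, Trem3, Cd300lb and Cd300ld as activating members, and Cd300a, Cd300lf, Pilra, Pirb and Sirpa as inhibitory members. The Ensembl identifiers of all 9 matched a symbol in the reference table, and all 9 passed the filter on low counts. RNA came from bone marrow neutrophils of C57BL/6 mice, and the cells were loaded with 250 nM of DiBAC4(3), a dye that is brighter in depolarized cells. Every cell in both groups had been stimulated with 100 nM ionomycin, a calcium ionophore. From 2 to 4 minutes later, 20000 cells that had depolarized and 20000 that were polarized were sorted for RNA. Each population has 3 libraries, 1 from each of 3 biological replicates, and the 2 libraries of a replicate are a pair (A, B or C, in the order of their title codes). No unstimulated cells are among the libraries, so a difference here is between sorted populations and not a response to the stimulus.

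Activating members have short cytoplasmic tails and signal through partner adaptors, chiefly DAP12 (gene Tyrobp) and the Fc receptor gamma chain (Fcer1g), whose tyrosines recruit the kinase Syk. Inhibitory members carry tyrosines of their own in immunoreceptor tyrosine-based inhibitory motifs (ITIMs), which recruit the phosphatases SHP-1 (Ptpn6), SHP-2 (Ptpn11) and SHIP-1 (Inpp5d). In neutrophils TREM-1 amplifies the response to bacterial products, while SIRP alpha, which binds CD47, and PIR-B, which binds MHC class I, restrain integrin signalling and phagocytosis.

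The coding sequences separate the members by these roles, and the motif runs are shown because ITIMs are the known feature of inhibitory members. In the longest coding transcript of each gene (GENCODE M21, GRCm38), the tail was taken as what follows the last hydrophobic stretch of 19 codons. An ITIM-like run was 6 codons with tyrosine at the third, isoleucine, leucine, valine or serine at the first, and isoleucine, leucine or valine at the sixth. The 5 inhibitory genes held 1 to 3 such runs in tails of 85 to 179 codons, and the 4 activating genes held 0 in tails of 7 to 33 codons without any tyrosine codon. Among 7545 mouse genes with a hydrophobic stretch, 26.9% held such a run in what follows it, so a match is a description of the sequence and not a tested site. Capitals mark the tyrosine codon in the runs below, which read 5′ to 3′ on the coding strand.
Cd300a motif 1: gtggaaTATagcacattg
Cd300a motif 2: cttcacTATtcatccgtg
Cd300lf motif 1: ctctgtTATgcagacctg
Cd300lf motif 2: gtttcaTATgccgctctg
Pilra motif 1: atcgtgTATgcttccatc
Pirb motif 1: agcctaTATgcttcagtg
Pirb motif 2: gtgaccTATgcccagctg
Pirb motif 3: agtgtaTATgctactctg
Sirpa motif 1: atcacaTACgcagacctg
Sirpa motif 2: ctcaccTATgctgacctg
Sirpa motif 3: tcagagTATgctagtgtc

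The first run of Cd300a lies at chr11:114899846-114899863 on the plus strand and the second run of Pirb at chr7:3712786-3712803 on the minus strand, and the first run of Pirb is split by an intron. In the hydrophobic stretch, Trem1 and Cd300lb held 1 lysine codon each and Trem3 held 2, a residue through which such receptors pair with DAP12. Cd300ld held 1 acidic codon and no lysine codon there, and the 5 inhibitory genes held neither.

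Trem1 (ENSMUSG00000042265, chr17:48232768-48246924) and Trem3 (ENSMUSG00000041754, chr17:48247777-48258841) are neighbours on the plus strand of chromosome 17 in GRCm38. The CD300 members share a stretch of chromosome 11, with Cd300a (ENSMUSG00000034652) at chr11:114890041-114904654 on the plus strand. Cd300lb (ENSMUSG00000063193, chr11:114922781-114934386), Cd300ld (ENSMUSG00000034641, chr11:114982274-114989922) and Cd300lf (ENSMUSG00000047798, chr11:115116214-115133992) lie on the minus strand. Pilra (ENSMUSG00000046245) is at chr5:137821952-137836268, Pirb (ENSMUSG00000058818) at chr7:3711409-3720391 and Sirpa (ENSMUSG00000037902) at chr2:129592835-129632228. Reads of paralogs can be misassigned where their sequence is shared, so runs of 50 bases were compared with the transcripts of all other genes. Of the runs of Pirb, 34.0% occurred in other genes, mainly the relatives Gm14548, Pira2 and Lilra6, and the value of Pirb is uncertain for that reason. For Pilra the share was 20.8%, most of it from the opposite strand of Zcwpw1, which held 52 counts against 132151. The other 7 members shared 0% to 3.89% of their runs.

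All 9 receptors ranked within the highest 7.79% of the tested genes when compared per gene length (RPKM, reads per kilobase of gene and per library size). Trem3 was the highest at 617 ± 60.6 RPKM (SD over all 6 libraries), rank 87 of the 9971 genes tested. Cd300lb followed at 402 ± 65.0 RPKM, Pilra at 380.3 ± 52.7 RPKM, Cd300ld at 320.2 ± 70.4 RPKM and Trem1 at 228 ± 48.5 RPKM. The remaining inhibitory genes lay lower, with Cd300a at 121 ± 24.6 RPKM, Cd300lf at 107 ± 12.8 RPKM, Pirb at 98.4 ± 9.59 RPKM and Sirpa at 49.2 ± 9.16 RPKM. Cd300lb and Pilra did not differ in order beyond their spread, since Cd300lb was the higher in 3 of 6 libraries. Cd300a exceeded Cd300lf, and Cd300lf exceeded Pirb, in 5 of 6 libraries, and every other step of the order was the same in 6 of 6. The 5 highest genes per length were therefore the activating ones and Pilra. Together the 9 genes took 0.505% to 0.743% of all counts.

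**Figure D1:**
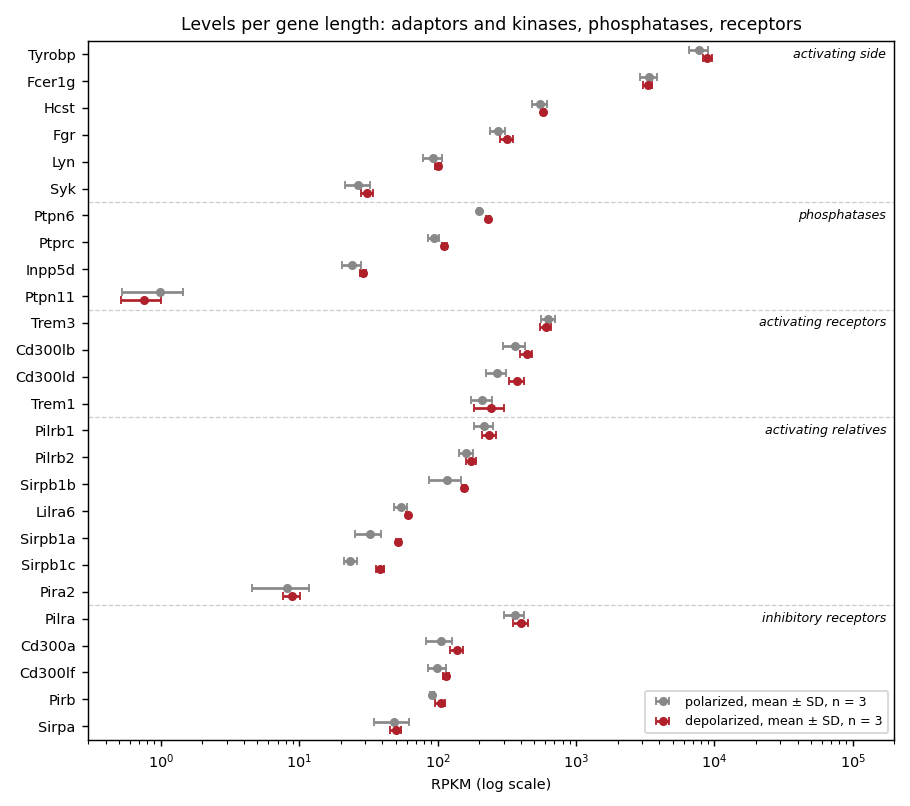
Level per gene length (RPKM, log axis) of signalling genes, phosphatases, the 9 receptors and their activating relatives in polarized (grey) and depolarized (red) cells, as mean ± SD of 3 libraries. Tyrobp is the highest at 8352 RPKM over all libraries, Ptpn11 the lowest at 0.873 RPKM, and the 9 receptors lie between 49.2 and 617 RPKM.

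The comparison asks whether receptor transcripts differed between neutrophils sorted as depolarized and as polarized after ionomycin. None of the 9 genes was called as different between the populations in the test over all genes. Fitted differences were at most 1.33-fold (Cd300ld, with an interval reaching 1.74-fold), so a difference is not excluded. In pairs A and B the same 7 members had higher values in depolarized cells, by 0.17 to 0.58 on the log2 scale, and in pair C 5 of these 7 had lower ones. Cd300ld and Cd300a were the members above 0 in all 3 pairs. Sirpa was below 0 in pairs A and B and above 0 in pair C. In the edgeR quasi-likelihood fit, which held the pair as a block, 0 of 9 members were called at an adjusted p under 0.05. The same rule called 0.321% of all genes tested, 0.0802% as higher and 0.241% as lower. At an unadjusted p under 0.05 there was 1 member (Cd300ld) against 6.58% of all genes, and DESeq2 with the same block called 0. The sources used here do not say whether the pairs came from separate animals, so the spread between pairs may be technical. The edgeR p-values rest mostly on a spread shared across genes (16.74 total against 2 residual degrees of freedom).

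Levels of single genes are given in CPM (counts scaled to a common library total), which compares libraries but not genes. Trem1, the receptor that amplifies inflammatory signalling through DAP12, was at 758, 546 and 590.2 CPM in polarized cells of pair A, B and C respectively, against 927, 699 and 570.1 CPM for depolarized cells. Depolarized cells had the higher value in pairs A and B and the groups overlapped. The fitted log2 fold change, depolarized minus polarized, was 0.13 with an approximate 95% interval of -0.27 to 0.53 (edgeR adjusted p 1). Trem3, a second DAP12 partner that is intact in mice and a pseudogene in humans, was at 564, 607 and 708 CPM in polarized cells, against 651, 608 and 541 CPM for depolarized cells. It was the most even of the activating genes over the 6 libraries, with the highest value in the polarized library of pair C. Its fitted log2 fold change was -0.13 (interval -0.54 to 0.29), the only one below 0, and it became 0.12 without pair C.

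Cd300lb, an activating CD300 receptor that signals through DAP12, was at 1062, 871 and 1242 CPM in polarized cells, against 1421, 1274 and 1167 CPM for depolarized cells. The polarized library of pair C lay inside the depolarized range and the other polarized libraries below it. Its log2 fold change was 0.23 (interval -0.20 to 0.65, edgeR adjusted p 1). Cd300ld, an activating member that pairs with the Fc receptor gamma chain, was at 769, 569 and 790.4 CPM in polarized cells, against 1097, 853 and 1003 CPM for depolarized cells. It was the only member whose groups did not overlap in plain CPM. Of all tested genes 10.4% showed the same, 7.28% with depolarized cells higher. With TMM, edgeR's library scaling, the groups of Cd300ld overlap. The factors that divide the values are 0.876 for the polarized library of pair C and 1.082 for the depolarized one of pair B. The mean CPM of Cd300ld went from 710 ± 122 CPM (SD, n = 3) to 984 ± 123 CPM. The fitted difference was 1.33-fold, with an interval of 1.02 to 1.74 and an edgeR adjusted p of 0.714.

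Among the inhibitory members, Cd300a, which binds phosphatidylserine and phosphatidylethanolamine on dying cells, was at 482, 402 and 613 CPM in polarized cells, against 651, 578 and 723 CPM for depolarized cells. The depolarized library was the higher in every pair, while the groups overlapped because the polarized library of pair C exceeded the depolarized one of pair B. The fit gave 1.26-fold (interval 0.963 to 1.64, edgeR adjusted p 0.871). Cd300lf, the inhibitory CD300 receptor also known as CLM-1, was at 493, 451 and 596 CPM in polarized cells, against 623, 579 and 574 CPM for depolarized cells. Its polarized libraries spread over a wider range than its depolarized ones, 513 ± 74.7 CPM against 592 ± 27.1 CPM (SD, n = 3). The log2 fold change of Cd300lf was 0.15 (interval -0.25 to 0.55).

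Pilra, which binds sialylated O-glycoproteins and is known to restrain neutrophil integrin activation, was at 1122, 922 and 1290 CPM in polarized cells, against 1351, 1067 and 1269 CPM for depolarized cells. Its groups overlapped and its log2 fold change was 0.08 (interval -0.31 to 0.48), or -0.04 without pair A. Pirb was at 401, 399.9 and 427 CPM in polarized cells, against 494, 492 and 425 CPM for depolarized cells, so that only the depolarized libraries of pairs A and B stood above the rest. The log2 fold change of Pirb was 0.13 (interval -0.26 to 0.52). Sirpa, the receptor for the CD47 signal that blocks phagocytosis, was at 269, 283 and 161 CPM in polarized cells, against 218, 264 and 254 CPM for depolarized cells. Here the polarized library of pair C was the lowest of the 6, whereas for Trem3 it was the highest. The log2 fold change of Sirpa was 0.02 (interval -0.38 to 0.41), or -0.19 without pair C. The lowest count of any member in any library was 3161, for which counting error alone is 1.78%.

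**Figure D2:**
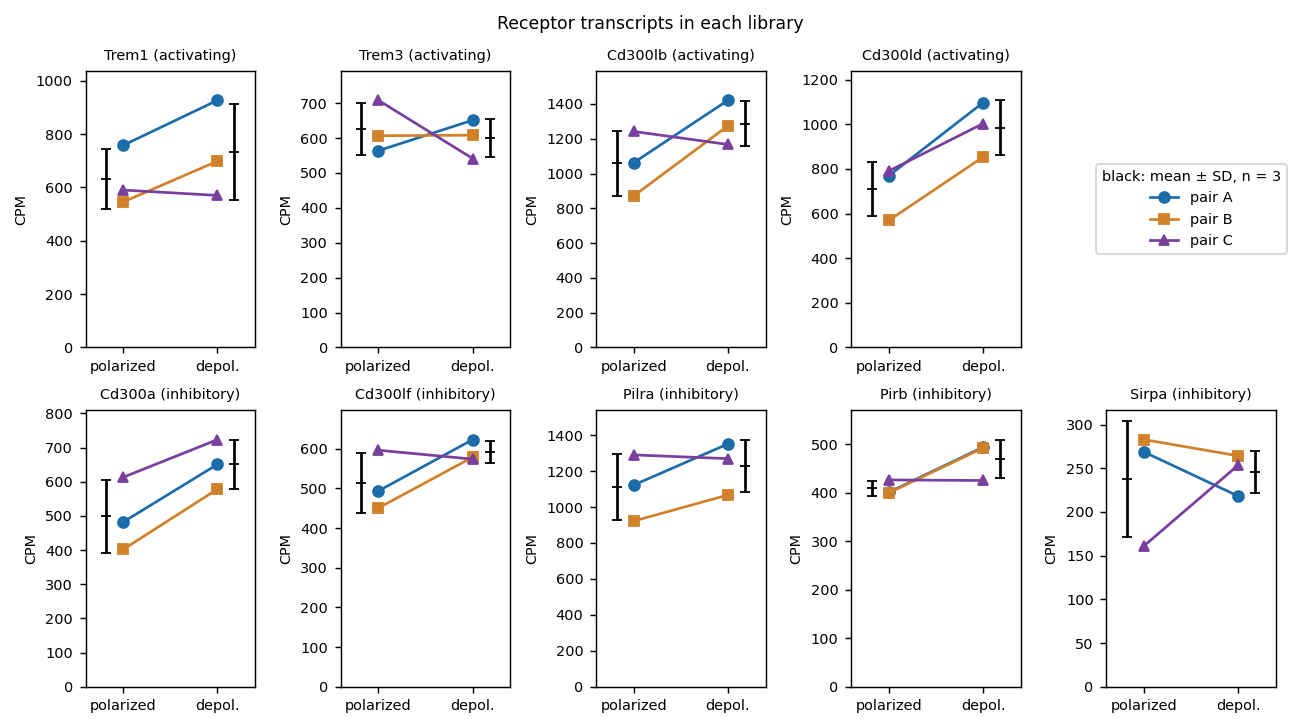
CPM of each receptor gene in the 6 libraries, with lines joining the polarized and depolarized library of a pair and black bars for the mean ± SD of 3 libraries. Lines of pairs A and B climb together for Trem1, Cd300lb, Cd300ld, Cd300a, Cd300lf, Pilra and Pirb. In plain CPM, without TMM scaling, only Cd300ld has all depolarized libraries (853 to 1097 CPM) above all polarized ones (569 to 790.4 CPM).

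Within pairs most members lay on the same side of 0. Differences below are on the log2 scale of TMM-scaled CPM, TMM being edgeR's library scaling, and are depolarized minus polarized. In pair A, 8 of 9 members were above 0 with a median of 0.36, where 49.2% of all tested genes were above 0. In pair B, 7 of 9 were above 0 with a median of 0.32, where 49.8% of all genes were. Pair C differed, with 3 of 9 above 0 and a median of -0.25, where 50.5% of all genes were above 0. Cd300ld ranged from 0.12 in pair C to 0.58 in pair A, and Cd300a from 0.01 to 0.50, while Sirpa was at -0.24, -0.14 and 0.43 in pairs A, B and C. The 7 members above 0 in both pairs A and B compare with 31.2% of all tested genes, and the 2 above 0 in all 3 pairs with 12.9% of all tested genes. The median fitted value of the 9 was 0.13 with 0 called, beside -0.00 for all genes tested.

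The size of the difference in pair C depended on the scaling, a comparison added after seeing the data. Plain CPM moved the median of all tested genes there to 0.24, and the members' median was -0.02 on that scale, so they again lay about as far below the other genes. Under plain CPM, TMM and size factors the sign of each member in each pair was the same, except for Trem3 in pair B, which was 0.00 with plain CPM and -0.03 with TMM. Without pair C, 6 of 9 members (Trem1, Cd300lb, Cd300ld, Cd300a, Cd300lf and Pirb) were called higher, with log2 fold changes of 0.31 to 0.56 and edgeR adjusted p of 7.07e-06 to 0.0369. That fit has 1 residual degree of freedom, so its p-values rest on a spread shared across genes and not on each gene's own spread. It called 10.1% of all genes tested, and 4.95% of all genes tested were called higher. In the polarized library of pair C, deviations from the gene means ran against gene length (Spearman rho -0.30 across 9971 genes, which are not independent replicates), against -0.05 to 0.19 in the other libraries. With the length trend removed from every library, 0 of 9 members were called and Cd300ld was at 0.41.

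**Figure D3:**
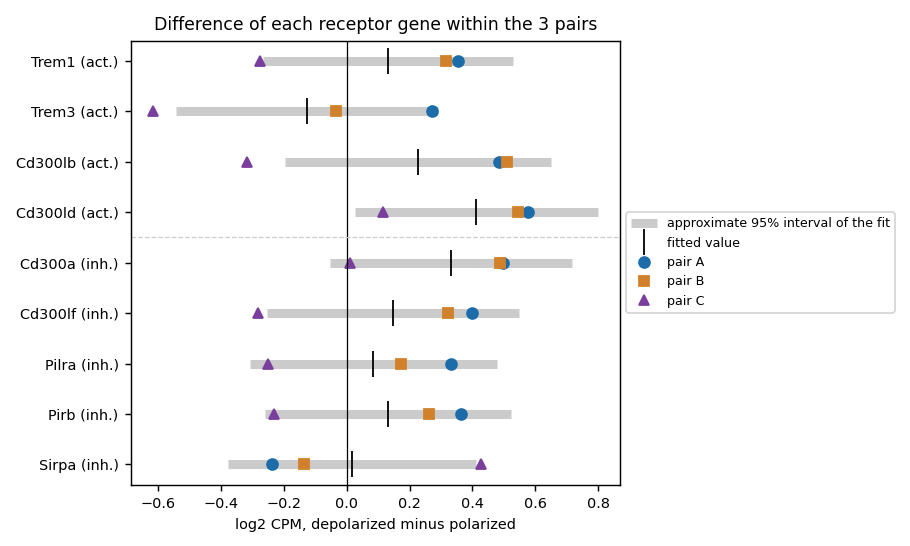
Log2 difference, depolarized minus polarized, of each receptor gene in pair A (circles), B (squares) and C (triangles), with the fitted value (black tick) and its approximate 95% interval (grey bar). Pair C lies to the left of pairs A and B for 8 genes and to the right for Sirpa, at 0.43.

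Markers of other cells are given because monocytes and immature neutrophils can carry these receptors too. The 14 listed monocyte and macrophage markers summed to 401 to 420.2 CPM in polarized against 538 to 579 CPM in depolarized libraries, with 0 of 10 tested members called. Csf1r, Adgre1 and Cd68 made up most of that level and were fitted above 0 (0.55, 0.49 and 0.31). The other 7 tested markers of the list were fitted below 0, from -0.78 for Mrc1 to -3.22 for Ccr2, and the monocyte genes Cx3cr1, Fcrls and Klf4 were under 1 CPM in every library and Ly86 and Ccr2 reached at most 2.14 CPM and 1.55 CPM. The 7 early-stage neutrophil markers, such as Mpo, summed to 62.2 to 354 CPM in polarized against 15.8 to 30.5 CPM in depolarized libraries, and 6 were called lower. Eosinophil markers, led by Prg2, ran from 52.1 to 496 CPM and from 61.3 to 211 CPM. B lineage markers, led by Ighm, summed to 534 to 626 CPM in polarized against 482 to 1227 CPM in depolarized libraries, with 0 of 7 called. The 11 neutrophil markers summed to 193700 to 238700 CPM in polarized against 166100 to 189300 CPM in depolarized libraries, and 2 of them, the granule genes Camp and Ltf, were called lower. The part of these cells in the receptor values was not tested, and in bulk RNA fewer cells of a type and less RNA per cell cannot be told apart. Library totals ran from 16904969 to 20381489 counts.

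The balance between activating and inhibitory members differed between the populations by less than the spread between pairs. Summed CPM of the 4 activating genes over that of the 5 inhibitory genes was 1.14, 1.06 and 1.08 for polarized cells of pair A, B and C respectively, against 1.23, 1.15 and 1.01 for depolarized cells. The activating sum was 3026 ± 386 CPM in polarized against 3604 ± 433 CPM in depolarized cells (SD, n = 3), and the inhibitory sum was 2771 ± 315 and 3187 ± 185 CPM. Per gene length the ratio was near 2, at 2.09 ± 0.0244 in polarized and 2.06 ± 0.192 in depolarized cells. On the log2 scale the mean within-pair difference of the CPM ratio was 0.05 with an SD of 0.12 over the pairs, and -0.02 when computed from RPKM.

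Within families the ratio took different values, and the SIRP family varied most. The activating CD300 members Cd300lb and Cd300ld stood at 3.08 ± 0.201 times the summed RPKM of Cd300a and Cd300lf in polarized and 3.23 ± 0.269 times in depolarized cells (SD, n = 3). In the PILR family, the DAP12-coupled genes Pilrb1 and Pilrb2 together matched Pilra, with ratios of 1.06 ± 0.0916 and 1.03 ± 0.0513. The PIR-A genes Lilra6 and Pira2 together reached 0.681 ± 0.0747 and 0.665 ± 0.0683 of Pirb. The relative Gm14548, with 10104 counts over all libraries, is not in that sum, so the ratio covers only part of the family. For SIRP, the summed RPKM of Sirpb1a, Sirpb1b and Sirpb1c over Sirpa was 3.05, 2.38 and 6.57 in polarized and 5.58, 4.56 and 4.73 in depolarized cells of pairs A, B and C. This ratio was higher in depolarized cells in pairs A and B and lower in pair C, where the polarized library held the lowest Sirpa. Close sequence within these families makes the ratios uncertain, and they were not tested.

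**Figure D4:**
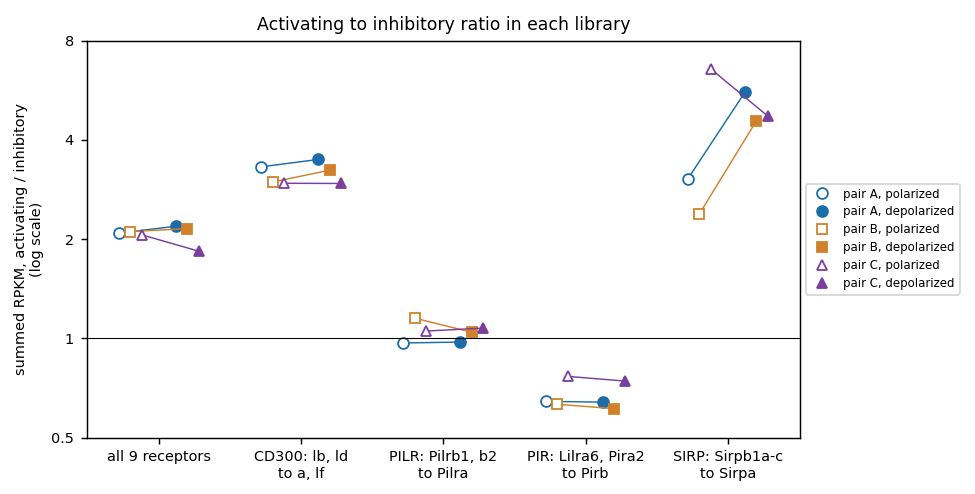
Summed RPKM of activating over inhibitory genes (log axis) for all 9 receptors and within the CD300, PILR, PIR and SIRP families, with open symbols for polarized and filled symbols for depolarized libraries joined by pair. Ratios of all 9 receptors lie between 1.84 and 2.19, and those of the SIRP family between 2.38 and 6.57.

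Other members of these families were mostly rare or did not pass the test. In the TREM family Treml2 (68.5 ± 7.20 CPM in polarized, 63.7 ± 6.10 CPM in depolarized cells) and Treml4 (16.3 ± 2.28 and 27.8 ± 11.3 CPM) were measurable, while Trem2, the microglial and macrophage receptor, and the platelet gene Treml1 summed to 50 and 3 counts over all 6 libraries. Of 9 further CD300 genes listed, 8 were in the files and 2 were tested, and 4 (Cd300ld2, Cd300ld4, Cd300ld5 and Cd300lg) had 0 counts. Cd300c2 was the abundant one at 112 ± 17.1 and 152 ± 23.05 CPM, with a log2 fold change of 0.37 and an edgeR adjusted p of 0.743. Cd300c was tested at 1.39 ± 0.612 and 1.92 ± 0.595 CPM, and Cd300ld3 and Cd300e summed to 21 and 7 counts. Among PILR, PIR, LILR and SIRP relatives, 7 of 16 listed genes were tested and 0 were called, with all 7 fitted above 0 and a median of 0.12. Sirpb1b, which encodes an activating SIRP, was at 176 ± 45.4 and 233 ± 7.92 CPM.

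The adaptor genes Tyrobp and Fcer1g lay above every receptor per gene length, at 8352 and 3348 RPKM over all 6 libraries. Neither was called, with log2 fold changes of 0.13 and -0.10. Hcst, which encodes the adaptor DAP10, was at 565 RPKM and Fgr, a Src family kinase that phosphorylates such motifs, at 296 RPKM, both below Trem3. Syk, the kinase that binds the phosphorylated adaptors, was at 28.9 RPKM, below all 9 receptors. Of 18 tested activating adaptors and kinases 0 were called, 10 were fitted above 0, and the median was 0.04.

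On the inhibitory side Ptpn6, the SHP-1 gene, was at 558 ± 8.05 CPM in polarized against 648 ± 20.6 CPM in depolarized cells, and Inpp5d, the SHIP-1 gene, at 184 ± 29.0 and 220 ± 12.4 CPM. In plain CPM their groups did not overlap, which 10.4% of all genes showed, 7.28% with depolarized cells higher. Neither was called, with log2 fold changes of 0.15 and 0.20. With TMM scaling the groups of Ptpn6 overlap and its log2 difference in pair C was -0.03, while the groups of Inpp5d stay apart. Ptpn11, the SHP-2 gene, was rare at 7.39 ± 3.48 and 5.69 ± 1.81 CPM. Ptprc, which encodes the leukocyte phosphatase CD45, was at 1673 ± 158 and 1989 ± 82.7 CPM, also without overlap and not called. Dok3, an inhibitory adaptor, and Csk, the kinase that holds Src kinases inactive, had log2 fold changes of -0.02 and 0.15. Of 10 tested phosphatases and inhibitory adaptors 0 were called and the median was 0.12.

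Ligand genes expressed by the same cells were also not called. Pglyrp1, which encodes a peptidoglycan recognition protein that binds TREM-1, was at 3897 ± 549 CPM in polarized against 3391 ± 199 CPM in depolarized cells. Cd47, the ligand of SIRP alpha, was at 368, 430.0 and 153 CPM in polarized cells, against 245, 372 and 385 CPM for depolarized cells. As for Sirpa, the polarized library of pair C was the lowest for Cd47, and the pair differences of Cd47 were -0.52, -0.25 and 1.10 on the log2 scale. MHC class I genes, whose products bind PIR-B, were high, with H2-D1 at 3057 ± 298 and 3654 ± 816 CPM B2m at 2807 ± 469 and 3184 ± 605 CPM and H2-K1 at 274 ± 20.2 and 331 ± 86.0 CPM. Of 9 tested ligand genes 0 were called.

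Cytokine genes that TREM-1 signalling is known to induce gave 0 calls among 5 tested members, all fitted above 0 with a median of 0.45. Il1b was at 650.3 ± 97.3 and 1014 ± 67.0 CPM (edgeR adjusted p 0.317), Ccl3 at 45.2 ± 20.7 and 62.2 ± 18.3 CPM, Cxcl2 at 149 ± 21.7 and 161 ± 15.5 CPM and Tnf at 9.35 ± 2.00 and 10.4 ± 2.03 CPM. Il6 had 0 counts in all libraries.

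The lists made for other receptors with the same adaptors or ITIMs gave 1 call, for a gene that uses other adaptors. Among 12 tested inhibitory receptors of myeloid cells 0 were called and the median was -0.04, with Siglece at 585 ± 42.1 and 697 ± 38.1 CPM and Cd33 at 643 ± 85.2 and 702 ± 106.5 CPM. Clec4a2, a C-type lectin receptor gene, was at 377 ± 30.9 and 306.5 ± 40.4 CPM, and Milr1 at 247 ± 16.0 and 225 ± 32.0 CPM. The log2 differences of Clec4a2 were -0.008, -0.318 and -0.786 in pairs A, B and C. Of the 9971 genes tested, 1204 were below 0 in all 3 pairs. The Fc receptor genes Fcgr3 and Fcgr4 and the lectin receptor genes Clec5a and Clec4e, the most abundant partners of these adaptors listed, had log2 fold changes of -0.03, 0.06, -0.16 and 0.02. Of 7 tested receptors listed as DAP12 or gamma chain partners, 1 (Cd244a) was called higher, against 0.0802% of all genes tested. It was at 23.3 ± 7.58 and 46.25 ± 7.20 CPM (log2 fold change 0.97, edgeR adjusted p 0.0425). Cd244a is a SLAM family receptor that signals through SAP adaptors, so it does not belong with the partners by its mechanism. The call was lost without the block (log2 fold change 0.92, adjusted p 0.5125), with the length trend removed (0.94, adjusted p 0.111) and without pair B (0.80, adjusted p 1), so the fitted difference changed less than its p.

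Patterns over the 6 libraries were compared as Pearson r of log2 CPM with TMM scaling. Cd300lb and Cd300lf were the most alike pair of members at 0.97, followed by Cd300lb with Pirb at 0.95 and Cd300lf with Pilra at 0.93. Sirpa was negatively correlated with all 8 other members, from -0.30 with Trem1 to -0.91 with Trem3. These values are descriptions over 6 libraries of one series, and they were not recomputed without single libraries. Among 4796 non-rare genes, those closest to Trem3 were Srsf7 (0.996), BC004004 (0.995) and Rabif (0.995). Closest to Pilra were Il1rn (0.999), which encodes the interleukin-1 receptor antagonist, Nod2 (0.998), a sensor of bacterial peptidoglycan, and Sar1a (0.991). In plain CPM Sar1a was nearly even, from 41.8 CPM in the polarized to 47.2 CPM in the depolarized library of pair C. Rabif was also nearly even in plain CPM, from 51.8 to 57.75 CPM over the 6 libraries. The r of Sar1a with Pilra and that of Rabif with Trem3 therefore depend on the TMM scaling.

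Promoter windows of 250 bases before the transcription start were in the RefSeq table (GRCm38.p6) for 7 of the 9 members, all except Trem3 and Sirpa. Windows of Cd300ld and Cd300a are shown because these were the members above 0 in all 3 pairs, and capitals mark a match to GAGGAAG, its reverse complement CTTCCTC or the longer GAGGAAGT, a core bound by ETS factors such as PU.1, the myeloid regulator. They lie at chr11:114989923-114990136 on the minus strand, where bases inside the deposited gene were left out, and chr11:114889791-114890040 on the plus strand.
Cd300ld: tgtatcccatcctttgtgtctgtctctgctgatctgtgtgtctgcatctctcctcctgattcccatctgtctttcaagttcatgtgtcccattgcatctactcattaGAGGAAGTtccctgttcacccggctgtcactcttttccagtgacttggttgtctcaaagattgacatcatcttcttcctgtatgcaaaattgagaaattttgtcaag
Cd300a: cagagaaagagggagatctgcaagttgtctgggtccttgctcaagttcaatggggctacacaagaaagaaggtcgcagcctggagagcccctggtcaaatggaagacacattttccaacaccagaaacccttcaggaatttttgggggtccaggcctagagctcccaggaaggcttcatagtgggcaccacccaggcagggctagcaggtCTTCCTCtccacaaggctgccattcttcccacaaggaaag

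On either strand, GAGGAAG was found in 5 of the 7 member windows and in 10.6% of 32851 windows of that length. The longer GAGGAAGT, which contains it, was found in 2 (Cd300ld and Pirb) against 2.44% of all windows, and the C/EBP palindrome TTGCGCAA in 0 against 0.164%. No binding was measured in these cells, and the motifs were chosen with the members known.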

How the data were processed

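Per the submitters' processing notes, bcl2fastq, STAR (2.0.4b), Subread and featureCounts (1.45) were used with build GRCm38. The strand setting and the handling of multi-mapping reads were not given in the sources used here. Deposited values include raw counts of reads for each gene. The authors' CPM equalled counts scaled to the library total, and the deposited RPKM equalled that CPM per kilobase of the listed length (largest differences 4.8e-10 and 4.37e-10). Libraries held 16904969 to 20381489 counts.

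Counts were fitted with edgeR 4.0.16 in R 4.3.3: filterByExpr by group (9971 genes, 99.9% of counts), TMM, and a quasi-likelihood F test with the pair as a block (2 residual degrees of freedom). P-values were adjusted by Benjamini-Hochberg over all genes and called under 0.05. Standard errors are the fold change over the square root of F, and intervals follow from them. The script was tested on simulated data. Alternatives were no block, DESeq2 1.42.0 and its size factors, 2 filters, a robust fit, a length correction and leaving out each pair. An exact paired permutation over 3 pairs cannot go below 0.25 and was not used.

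Pairing rests on the series' design text. Deviations from the group means correlated across genes at 0.0751, 0.27 and 0.0326 within pair A, B and C respectively, and at -0.215 to 0.135 between libraries of different pairs. The highest of these (polarized C with depolarized A) exceeded the values within pairs A and C, so the data do not set these pairs apart. All libraries of a group differed beyond sampling noise (chi-square per degree of freedom 29.1 to 100.0). The titles carry a run label that differs in 1 library (depolarized, pair B), whose meaning is not given.

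The members and lists were chosen with earlier results of these data known. Named were the 9 members, the 4 genes of highest RPKM and any called gene in each other list, and the 3 genes most like the highest activating and inhibitory member, among genes of mean CPM 10 or more. Others were named after their values were seen. Listed genes without a match in the files (Cd300lh, Pira1, Pira5, Pira6, Pira7, Pira12, Pira13, Lilrb4a, Lilrb4b and Cd99) were not analysed here.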

Additional observations from a re-analysis of the deposited data

How the results depend on the processing

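No member was called under any of the alternatives except without pair C, and leaving out 1 pair in turn gave 0 to 6 called members. Over all genes, leaving out a pair gave 9 to 500 genes higher and 36 to 518 lower, against 8 and 24 with all pairs. Without the replicate block 0 genes were called higher and 0 lower by edgeR (511 at an unadjusted p under 0.05). Members were not called with or without the block, but the unadjusted edgeR p rose without it for Cd300ld (0.0373 to 0.0983) and Cd300a (0.0876 to 0.221). DESeq2 with the block called 16 higher and 23 lower, and edgeR without a filter on low counts 50 and 96. The stricter filter (a minimum count of 50) called 9 lower, and removing the length trend left 0 higher and 7 lower. The sign of the fitted log2 fold change turned for Sirpa without the block (-0.003), and the cause was not tested. Leaving out 1 pair in turn gave -0.187 (without pair C) to 0.147 for Sirpa, -0.322 to 0.118 (without pair C) for Trem3 and -0.037 (without pair A) to 0.252 for Pilra. The other 6 members kept their sign under each alternative run. Without pair A the fitted value was 0.022 for Trem1, 0.022 for Cd300lf, 0.017 for Pirb and 0.098 for Cd300lb, and without pair B it was 0.039, 0.059, 0.067 and 0.084. With all pairs these 4 genes were at 0.132, 0.147, 0.132 and 0.227. The ratio of activating to inhibitory genes moved by less than its spread between pairs. Members above 0 in a pair were also counted with plain CPM and with size factors, chosen after seeing the data: plain CPM gave 8, 8 and 3 of 9 in pairs A, B and C, and size factors gave 8, 7 and 3. Counting error was small for the members (1.78% at the lowest count), and what limited the calls was not tested.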

Other observations

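Lair1, an ITIM-bearing collagen receptor of the list of inhibitory receptors, was picked out after its values were seen. It was at 14.2, 17.5 and 14.2 CPM in polarized cells of pair A, B and C respectively, against 28.9, 29.5 and 34.1 CPM for depolarized cells, so that the groups did not overlap. Its log2 fold change was 0.95 ± 0.20 (SE), and it was above 0 in 3 of 3 pairs (edgeR adjusted p 0.0574). Over the alternatives the adjusted p ran from 6.92e-06 without pair C to 0.429 without pair B, and DESeq2 with the block gave 0.00775. Sirpb1c, an activating relative of Sirpa, was also picked out afterwards: it was at 67.8, 59.2 and 73.4 CPM in polarized and 102, 116 and 108.5 CPM in depolarized cells, with log2 fold change 0.64 and edgeR adjusted p 0.236. Dok2, an adaptor that dampens tyrosine kinase signalling, was lower in depolarized cells in 3 of 3 pairs, at 11.4 ± 1.42 and 6.86 ± 1.67 CPM (SD, n = 3, edgeR adjusted p 0.314). Of the 9971 genes tested, 1204 were below 0 in all 3 pairs. In plain CPM, 10.4% of all tested genes had groups that did not overlap.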
